A study of Mus musculus with 8 samples.

Results

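The genes described here encode the proteins of the mitochondrial ribosome. They were taken as every gene of the deposited table whose symbol begins with Mrpl or Mrps followed by a number, which gave 78 of 22173 genes. By symbol, 49 belong to the large subunit (Mrpl) and 29 to the small subunit (Mrps). The mitochondrial ribosome makes the few respiratory chain and ATP synthase subunits that are encoded in mitochondrial DNA. Its ribosomal RNAs come from mitochondrial DNA, but all of its proteins are encoded in the nucleus, made in the cytosol and imported. Heart muscle draws most of its ATP from oxidative phosphorylation and is rich in mitochondria.

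RNA from hearts of C57BL/6J mice was sequenced after an infarct had been made by tying off the left anterior descending coronary artery. In 4 libraries the mice had been given vehicle, and in the other 4 they had been given dapagliflozin (labelled DAPA), an inhibitor of the kidney glucose transporter SGLT2, at 1 mg/kg per day for 4 weeks from surgery. The labels do not state age, sex or the piece of heart taken, and no unoperated hearts were analysed here. The labels do not say whether the 4 libraries of a group came from separate animals, so p-values measure the spread between these libraries, which may be technical.

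Depth was even, at 24969690 to 26801254 reads per library over the genes of the table. Levels are in FPKM, fragments per kilobase of transcript after scaling for depth. The length the authors used for each gene came back from its values, and it ranged from 0.0636 times the summed exons of the gene in GENCODE M21 (Mrpl33) to 7.93 times (Mrpl14), so that levels of different genes are only roughly comparable. Within a gene the length is the same in all libraries. All 78 genes passed the filter of a mean of at least 1 FPKM in a group, and each held between 510 and 7995 reads in a library. Markers of atrial cardiomyocytes and of adipocytes differed strongly between the groups. Markers are called higher or lower here by the limma test given below. All 8 atrial cardiomyocyte markers were higher with DAPA, with a summed level of 8109 to 9053 FPKM in the vehicle libraries and 12950 to 13660 FPKM in the DAPA libraries. Most of that sum is Nppa, which went from 8481 ± 447 to 12070 ± 305 FPKM (SD, n = 4 each), and the ratio of DAPA to vehicle was larger for each of the other markers. Myl7, the atrial light chain, was at 0.379 to 2.93 FPKM with vehicle and 578 to 627 FPKM with DAPA. Sln went from 0.278 ± 0.410 to 312 ± 19.1 FPKM and Mybphl from 0.0891 ± 0.0526 to 58.2 ± 4.08 FPKM. Bmp10 was at 0 in 3 of the vehicle libraries and Sln in 1. All 8 adipocyte markers tested were lower with DAPA. Their summed level was 1566 to 1766 FPKM in the vehicle libraries and 1139 to 1195 FPKM in the DAPA libraries. Most of that sum is Fabp4, which went from 1361 ± 54.4 to 1102 ± 13.3 FPKM (SD, n = 4 each). The ratio of DAPA to vehicle was 0.810 for Fabp4 and ran from 0.0872 (Pck1) to 0.791 (Plin4) for the other markers tested. A list of 8 genes taken as ventricular cardiomyocyte markers held Myl2, Myl3, Myh6, Myh7, Irx4, Tnni3, Tnnt2 and Actc1. Myh6, Tnni3, Tnnt2 and Actc1 are also expressed in atrial cardiomyocytes, so the list does not follow ventricular tissue alone. Its summed level was 30753 to 31347 FPKM with vehicle and 28282 to 30205 FPKM with DAPA. Of the 8, 1 was higher (Irx4) and 2 were lower (Myl2 and Actc1). Of 6 fibroblast markers 1 was higher and 3 were lower, and of 5 endothelial markers 4 were higher. Of 5 macrophage markers 2 were higher and 1 was lower. Over all genes tested, 9.62% were higher and 8.75% lower. Summed levels differed by -6.4% for fibroblast, 13.1% for endothelial and -4.1% for macrophage markers, and by -5.6% for the ventricular list. The part of these differences in the results below was not tested. Since the labels do not state which piece of each heart was taken, treatment and a difference in the tissue sampled cannot be told apart. In a bulk sample, fewer cells of a type and less RNA per cell cannot be told apart.

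Of the 78 genes, 23 (29.5%) fell and none rose, at an adjusted p of 0.05 in limma over all 11496 genes tested. Over all genes tested 8.75% fell and 9.62% rose, and 18.4% changed in either direction. The falls of the 23 genes ran from 6.39% to 15.8% of the vehicle mean. The estimate was below 0 for 67 of the 78 genes (85.9%), against 47.0% of all genes tested. The median log2 change was -0.07 against 0.01 for all genes. In 20 of the 78 genes every DAPA library lay below every vehicle library, which held for 9.99% of all genes, and in none did every DAPA library lie above, against 12.1%. Among the 6636 genes whose mean level lay within the range of these 78, 10.5% fell and 46.3% had an estimate below 0. This cut sets only the range and does not match the 78 genes for level. The median vehicle level was 43.6 FPKM for the 78 genes and 8.32 FPKM for all genes tested. The count of 23 depended on the libraries used. It was 18, 13, 15 and 15 without vehicle library 1, 2, 3 and 4 in turn, and 13, 15, 13 and 14 without DAPA library 1, 2, 3 and 4. In these fits 16.7% to 23.1% of the 78 genes fell, against 7.04% to 8.01% of all genes.

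**Figure D1:**
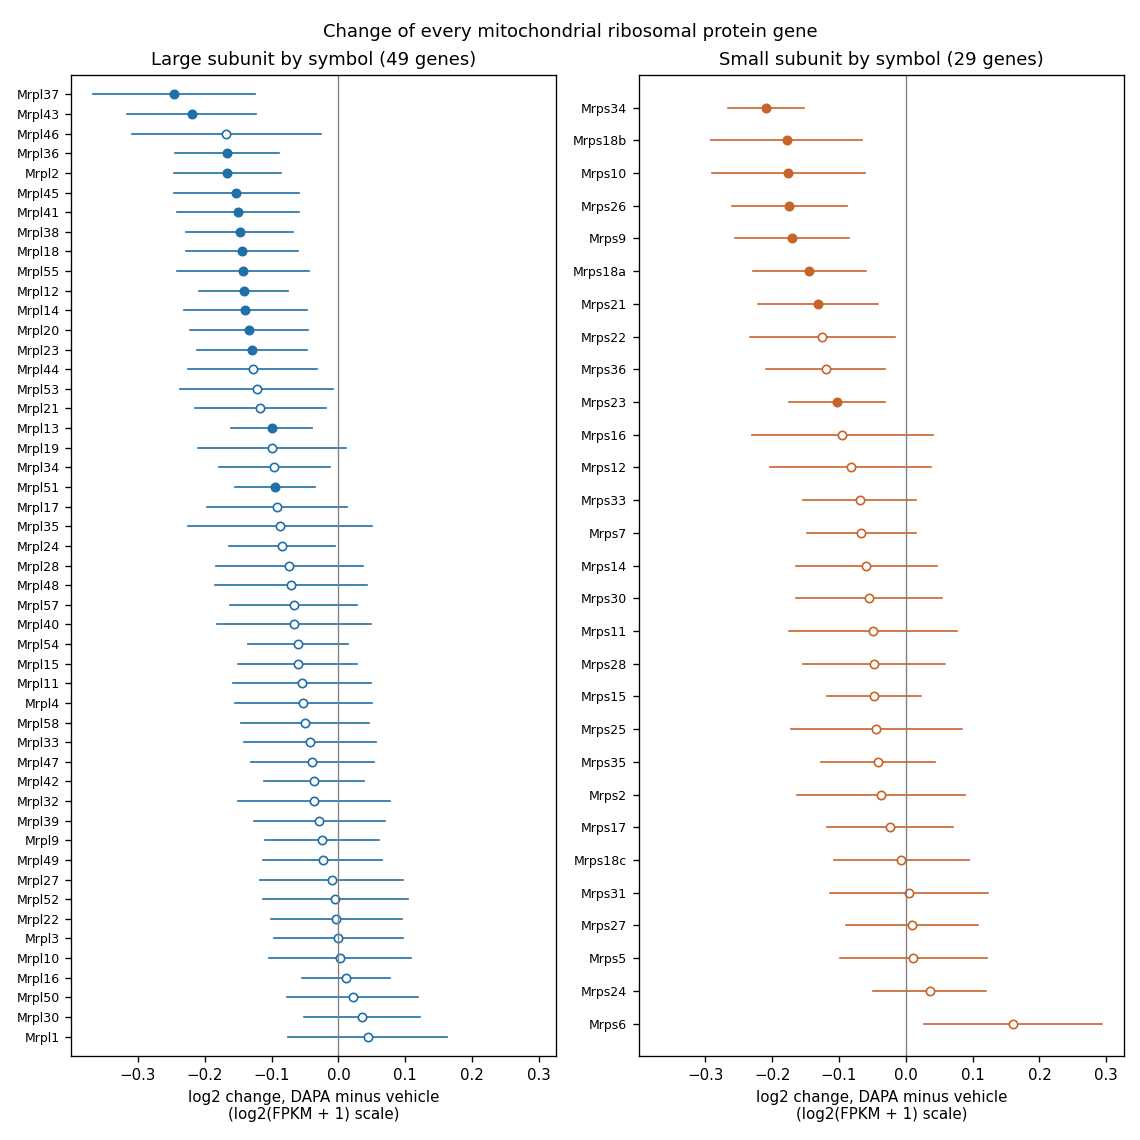
Change of each mitochondrial ribosomal protein gene, as the log2 difference of DAPA from vehicle on the log2(FPKM + 1) scale with its 95% confidence interval. Filled points are the 23 genes that fell in limma, and the estimates run from -0.25 for Mrpl37 to 0.16 for Mrps6.

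The summed level of the 78 genes showed the same difference library by library. It was 5063 ± 105 FPKM with vehicle (SD, n = 4) and 4778 ± 75.9 FPKM with DAPA (SD, n = 4), a difference of -5.63%. The vehicle libraries spanned 4990 to 5215 FPKM and the DAPA libraries 4690 to 4874 FPKM, without overlap. Vehicle library 2 held the highest value of 27 of the 78 genes and DAPA library 1 the lowest of 23. The FPKM of all genes of the table also summed highest in vehicle library 2, to 516016, against 497260 to 503486 in the other libraries. Without vehicle library 2 the difference of the sums was -4.68%.

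Both subunits moved in the same direction. Of the large subunit genes, 15 of 49 (30.6%) fell, with a median log2 change of -0.07 and 43 estimates below 0. Of the small subunit genes, 8 of 29 (27.6%) fell, with a median of -0.06 and 24 estimates below 0. Summed large subunit levels were 3275, 3378, 3259 and 3294 FPKM in vehicle libraries 1 to 4, and 3035, 3182, 3116 and 3142 FPKM in DAPA libraries 1 to 4. Summed small subunit levels were 1716, 1836, 1738 and 1755 FPKM with vehicle and 1655, 1692, 1647 and 1642 FPKM with DAPA. For each subunit the DAPA libraries were all below the vehicle libraries, with mean differences of -5.54% and -5.80%. The ratio of the large to the small subunit sum was 1.88 ± 0.0283 with vehicle and 1.88 ± 0.034 with DAPA (SD, n = 4 each), and its ranges overlapped.

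**Figure D2:**
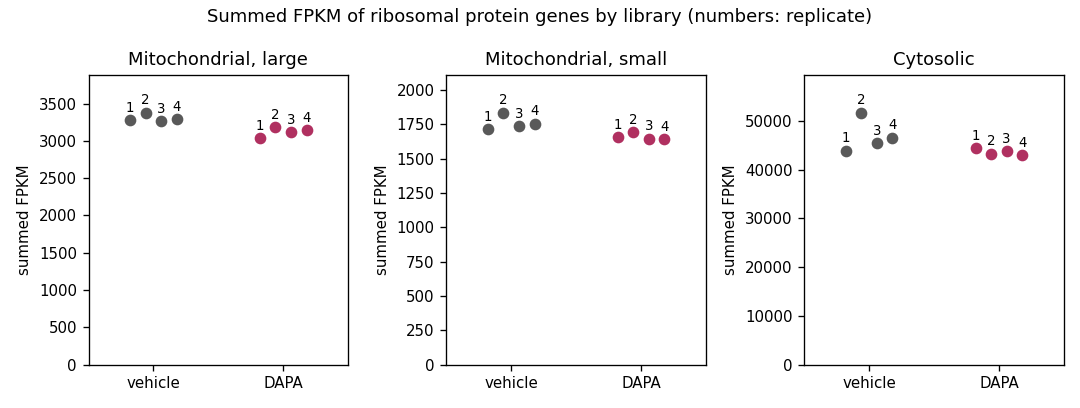
Summed FPKM per library for large subunit genes, small subunit genes and cytosolic ribosomal protein genes. Each point is 1 library, numbered by replicate, and the axes start at 0. The DAPA libraries lie below all vehicle libraries for both mitochondrial subunits, at 3035 to 3182 against 3259 to 3378 FPKM for the large one, and the 2 groups overlap for the cytosolic genes.

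Symbols do not always match the place of the protein. Mrps18a and Mrps30 sit in the large subunit, and Mrps36 is a component of the oxoglutarate dehydrogenase complex. With those genes placed by their protein, 16 of 51 large subunit genes and 7 of 26 small subunit genes fell, with medians of -0.07 and -0.05. Some mitochondrial ribosomal proteins descend from bacterial ribosomal proteins, and others were added during the evolution of mitochondria. Among genes with a bacterial counterpart 12 of 46 fell (26.1%), with a median log2 change of -0.06. Among genes specific to mitochondria 11 of 31 fell (35.5%), with a median of -0.07. These counts were not tested against each other.

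Mean levels of the 78 genes ran from 6 FPKM for Mrpl19 to 412 FPKM for Mrpl42, and the lengths behind the values, recovered from the FPKM, were 412 to 8707 bases. The order of genes rests on these lengths. For Mrpl33 the length was 466 bases against 7326 exonic bases in GENCODE M21, for Mrpl42 689 against 3682, and for Mrpl14 7525 against 949, more than the annotation holds. Across the 78 genes Spearman's rho between length and mean FPKM was -0.781. In the large subunit the highest level was that of Mrpl42, at 417 ± 13.6 FPKM with vehicle and 407 ± 16.9 FPKM with DAPA (SD, n = 4 each, adjusted p = 0.52 in limma). It was followed by Mrpl12, described below, then Mrpl33 at 227 ± 17.8 and 219.6 ± 4.99 FPKM (adjusted p = 0.58 in limma) and Mrpl54 at 136 ± 4.51 and 130.2 ± 4.83 FPKM (adjusted p = 0.26 in limma). At the low end of the large subunit were Mrpl19 at 6.24 ± 0.218 and 5.76 ± 0.267 FPKM, Mrpl17 at 8.60 ± 0.313 and 8.01 ± 0.342 FPKM, Mrpl1 at 9.07 ± 0.224 and 9.41 ± 0.763 FPKM and Mrpl15 at 11.1 ± 0.315 and 10.6 ± 0.114 FPKM. None of these 4 passed the test, with adjusted p of 0.21, 0.22, 0.64 and 0.35 in limma, although all DAPA libraries of Mrpl15 lay below all vehicle libraries. In the small subunit by symbol, Mrps21, Mrps34, Mrps23 and Mrps36 were highest, and Mrps36 was at 122.5 ± 6.82 and 113 ± 3.76 FPKM. The lowest were Mrps25 at 7.72 ± 0.529 and 7.46 ± 0.477 FPKM (adjusted p = 0.66 in limma) and Mrps2 at 12.8 ± 0.877 and 12.4 ± 0.866 FPKM (adjusted p = 0.72 in limma), with Mrps10 and Mrps18b, which fell. The highest level within the large subunit and the highest within the small one, Mrps21, do not overlap in any library. Mrpl33 lay above Mrps21 in every library, with ranges that overlapped between the vehicle libraries and not between the DAPA libraries. Among the 26 genes with the lowest means 4 fell, among the middle 26 genes 9 fell, and among the 26 highest 10 fell, with medians of -0.05, -0.08 and -0.10. Across the 78 genes, which are not independent replicates, Spearman's rho between mean FPKM and log2 change was -0.135.

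**Figure D3:**
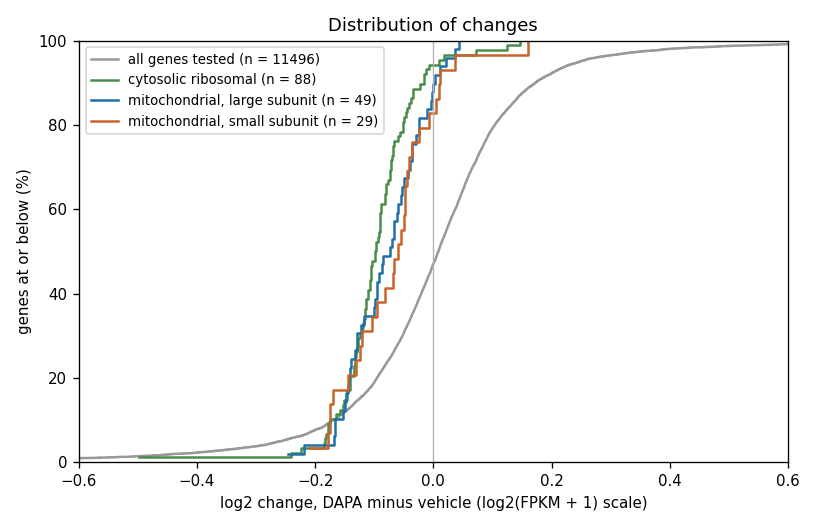
Cumulative share of genes by log2 change (DAPA minus vehicle) for all genes tested, cytosolic ribosomal protein genes and the large and small subunit genes of the mitochondrial ribosome. Both mitochondrial subunits have steeper curves that cross their midpoint to the left of all genes, with medians of -0.07 and -0.06 against 0.01.

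A group of 9 genes fell in all 16 alternative fits as well as in the fit reported. In each of the 9 all DAPA libraries lay below all vehicle libraries. The 9 were chosen by fits to these same libraries, so this separation adds no independent support. Mrps34, a small subunit protein specific to mitochondria that is altered in some human Leigh syndrome, had the smallest adjusted p. It was at 148, 148, 143 and 148 FPKM in vehicle libraries 1 to 4 and at 128, 128, 124 and 127 FPKM in DAPA libraries 1 to 4. It fell by 13.6%, with a log2 change of -0.21 (SE 0.0263) and an adjusted p of 9.9e-05 in limma. In each group library 3 was the lowest.

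Among the large subunit genes specific to mitochondria, Mrpl43 was at 62.5, 62.4, 55.1 and 61.7 FPKM with vehicle and at 54.4, 49.7, 50.7 and 52.0 FPKM with DAPA. It fell by 14.4%, with an adjusted p of 0.0040 in limma, and vehicle library 3 was the lowest vehicle value. Mrpl37, which has the largest fall, was at 54.3, 49.0, 53.5 and 49.7 FPKM with vehicle and at 38.5, 44.9, 43.8 and 46.7 FPKM with DAPA. It fell by 15.8%, with an adjusted p of 0.0080 in limma, and DAPA library 1 was the lowest. Mrpl38, a protein of the central protuberance of the large subunit, was at 52.0, 49.9, 51.1 and 46.6 FPKM with vehicle and at 44.8, 44.5, 45.5 and 44.9 FPKM with DAPA. It fell by 0.15 on the log2 scale, with an adjusted p of 0.0145 in limma.

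Genes of the large subunit with a bacterial counterpart included Mrpl12, Mrpl2 and Mrpl36. Mrpl12 forms the flexible stalk that recruits translation factors, and it was at 297, 295, 297 and 309 FPKM with vehicle and at 264, 286, 269 and 267 FPKM with DAPA. It fell by 9.37%, with an adjusted p of 0.0060 in limma, and DAPA library 2 was the highest of its group. Mrpl2 lies next to the peptidyl transferase centre, where peptide bonds are made. It was at 89.8, 85.2, 89.2 and 84.1 FPKM with vehicle and at 74.6, 82.2, 76.3 and 76.9 FPKM with DAPA, and it fell by 11.0% (log2 change -0.17, adjusted p = 0.0070 in limma). Mrpl36 was at 54.4, 52.6, 52.1 and 50.2 FPKM with vehicle and at 48.2, 45.1, 47.2 and 45.5 FPKM with DAPA. It fell by 11.1%, with an adjusted p of 0.0056 in limma.

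The small subunit gave 2 more. Mrps9 lies in the head of the small subunit near the tRNA, and it was at 45.0, 43.5, 42.5 and 45.5 FPKM with vehicle and at 37.1, 40.9, 40.3 and 38.3 FPKM with DAPA. It fell by 11.3%, with an adjusted p of 0.0089 in limma. Mrps26, which is specific to mitochondria, was at 63.8, 63.2, 61.0 and 63.4 FPKM with vehicle and at 56.3, 58.5, 51.4 and 56.4 FPKM with DAPA. It fell by 11.5%, with an adjusted p of 0.0081 in limma, and DAPA library 3 was the lowest.

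**Figure D4:**
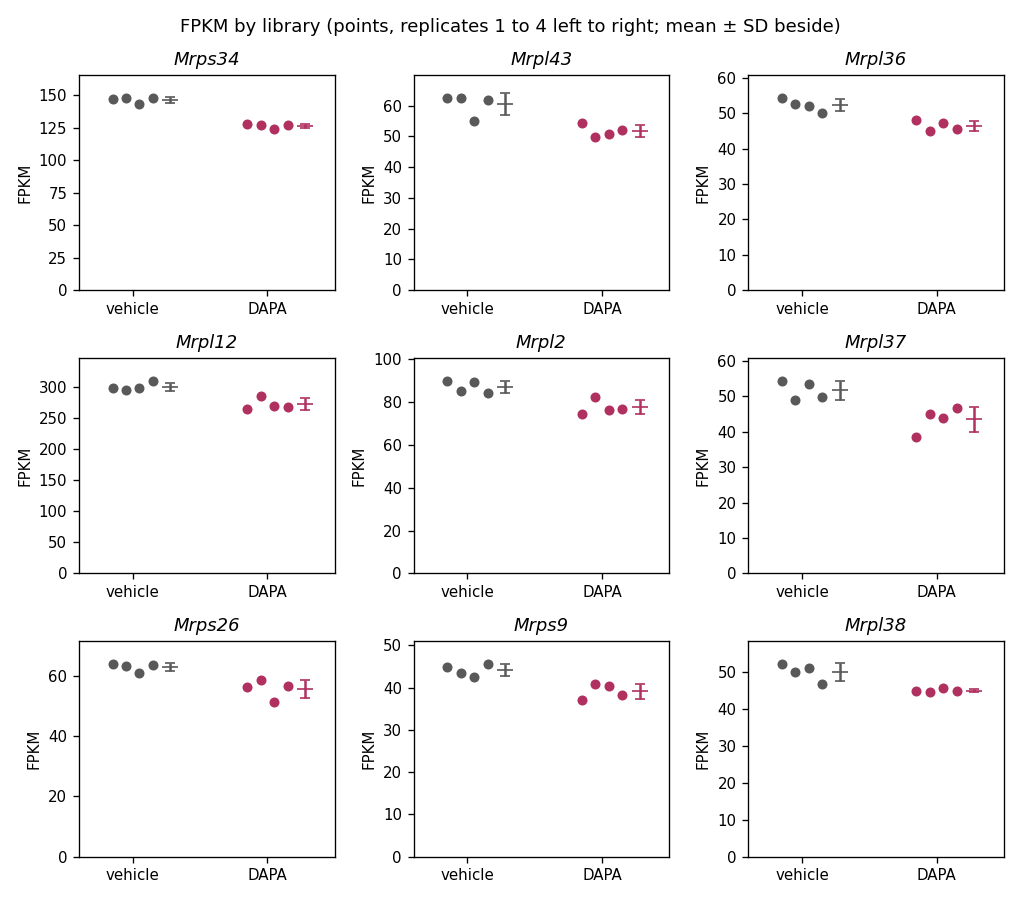
FPKM in each of the 8 libraries for the 9 genes that fell in every fit, with the mean ± SD of each group (n = 4). In each gene all DAPA values lie below all vehicle values, from Mrps9 at 44.1 and 39.1 FPKM to Mrpl12 at 299 and 271 FPKM.

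The other 14 genes that fell lost the call in 1 to 10 of the 16 alternative fits, in which their highest adjusted p in limma was 0.0634 to 0.116. Around the exit tunnel, through which the new protein leaves the ribosome, Mrpl45 went from 23.5 ± 0.845 FPKM with vehicle to 21.0 ± 0.988 FPKM with DAPA and Mrpl23 from 42.7 ± 1.95 to 38.9 ± 0.905 FPKM (SD, n = 4 each, here and in the rest of the paragraph). Mrpl45 anchors the ribosome to the inner membrane, into which most of its products are inserted. Mrpl18, a protein of the central protuberance, went from 60.3 ± 3.28 to 54.5 ± 0.416 FPKM. Mrpl14, which lies on the face toward the small subunit, where the assembly factor Malsu1 binds, went from 11.8 ± 0.425 to 10.6 ± 0.163 FPKM. Of the other large subunit genes, Mrpl13 went from 121 ± 2.73 to 113 ± 1.37 FPKM and Mrpl41 from 29.8 ± 1.55 to 26.7 ± 0.722 FPKM. Mrpl51 was at 118, 119.7, 120.4 and 122 FPKM with vehicle and at 115, 111, 109.7 and 114 FPKM with DAPA. In these 7 genes all DAPA libraries lay below all vehicle libraries. In Mrpl20, at 75.2 ± 2.92 and 68.5 ± 3.36 FPKM, and Mrpl55, at 90.5 ± 5.76 and 81.9 ± 3.44 FPKM, the groups overlapped. Of the small subunit genes by symbol, Mrps10, a protein of the head, went from 13.4 ± 0.292 to 11.8 ± 0.916 FPKM and Mrps23 from 133 ± 5.81 to 124 ± 1.62 FPKM, both without overlap. Mrps21 went from 211 ± 13.9 to 192 ± 3.08 FPKM with overlap. Mrps18a, Mrps18b and Mrps18c encode related proteins, of which Mrps18a belongs to the large subunit and the other 2 to the small one. Mrps18a went from 87.1 ± 3.45 to 78.7 ± 3.45 FPKM and Mrps18b from 16.1 ± 0.543 to 14.1 ± 1.07 FPKM, each with overlap, and Mrps18c was at 72.0 ± 4.42 and 71.6 ± 3.37 FPKM and did not pass the test (adjusted p = 0.94 in limma). Whether the 3 related genes differ in their change was not tested. Mrpl55 and Mrps23 lay just inside the threshold, with adjusted p of 0.047 and 0.049 in limma, and Mrps36 and Mrpl44 just outside, with 0.060 and 0.065.

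The 55 genes that did not pass the test had log2 changes from -0.17 for Mrpl46 to 0.16 for Mrps6. Mrps6 was the gene with the highest estimate, at 32.4, 40.0, 40.1 and 35.6 FPKM with vehicle and 43.9, 39.8, 41.2 and 40.5 FPKM with DAPA, so that the groups overlapped (adjusted p = 0.090 in limma). Without vehicle library 2 or 3 it passed the test as higher. Exons of Mrps6 share 159 bases with Slc5a3, a myo-inositol cotransporter gene on the same strand, which rose from 1.11 ± 0.0423 to 2.14 ± 0.174 FPKM (SD, n = 4 each, adjusted p = 4.1e-05 in limma). Mrpl58, a peptidyl-tRNA hydrolase that rescues stalled ribosomes, was at 80.8 ± 4.14 and 78.0 ± 4.03 FPKM (adjusted p = 0.49 in limma). Mrps30 was at 33.4 ± 2.05 and 32.1 ± 1.82 FPKM (adjusted p = 0.50 in limma).

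In the mouse annotation GENCODE M21, 21 of the 78 genes share exonic bases with another gene of the table, 3 of them on the same strand and 19 on the opposite strand, and 6 of the 23 that fell are among the 21. No source used here says if counting kept the strand, so values of the genes that overlap on the opposite strand are uncertain. For the 3 that overlap on the same strand, the strand would not separate the reads, so their values are uncertain either way. Mrps34 shares 763 bases on the same strand with Nme3, a nucleoside diphosphate kinase gene. Nme3 was at 43.3 ± 3.20 and 38.5 ± 2.36 FPKM (SD, n = 4 each here and below, adjusted p = 0.052 in limma). Mrps34 also shares 1309 bases on the opposite strand with Mapk8ip3, at 20.5 ± 1.05 and 20.9 ± 0.676 FPKM (adjusted p = 0.74 in limma). On the opposite strand Mrpl43 shares 507 bases with Twnk, at 6.11 ± 0.769 and 6.46 ± 0.546 FPKM (adjusted p = 0.58 in limma). Mrpl36 shares 30 bases on the opposite strand with Ndufs6, which fell from 839 ± 12.8 to 764 ± 22.7 FPKM (adjusted p = 0.0041 in limma).

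The authors' deposited table gives a ratio of DAPA over vehicle below 1 for 72 of the 78 genes. At a q of 0.05 in the authors' deposited table, 23 of the 78 were lower and none was higher. Among the 15527 genes with a q there, 8.65% were lower and 8.76% higher. Of those 23 genes, 22 were among the 23 that fell in limma. The 2 lists differed by Mrps36, with a q of 0.0412 in the authors' deposited table, and Mrps18b, with a q of 0.0511 in the authors' deposited table.

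Other genes of mitochondrial translation were examined in the same fit. Of 5 further subunit genes with other symbols (Dap3, Ptcd3, Chchd1, Aurkaip1 and Gadd45gip1) none passed the test, with a median log2 change of -0.03, and Gadd45gip1 had an adjusted p of 0.0507 in limma. Of 25 assembly factor genes 1 fell, C1qbp, a matrix protein needed for mitochondrial translation, at 142, 152, 146 and 139 FPKM with vehicle and 120.1, 128, 123 and 126 FPKM with DAPA (log2 change -0.22, adjusted p = 4.8e-04 in limma). Of 12 translation factor genes 1 fell, Tsfm, the exchange factor of the elongation factor Tufm, at 42.2, 48.1, 45.6 and 44.6 FPKM with vehicle and 35.2, 38.7, 38.2 and 35.7 FPKM with DAPA (log2 change -0.28, adjusted p = 7.8e-04 in limma). For both genes all DAPA libraries lay below all vehicle libraries. The 1 gene that fell was 4% of the assembly factor list and 8.33% of the translation factor list. Over all genes tested 8.75% fell. Tufm itself had a log2 change of -0.09 (adjusted p = 0.055 in limma). A list for aminoacyl-tRNA synthetases had 20 genes tested, among them Gatb, Gatc and Qrsl1, which encode subunits of a tRNA amidotransferase. None of these 20, of 11 genes of mitochondrial transcription and RNA processing, or of 9 regulator genes passed the test in either direction. The regulators included Nrf1, Gabpa, Yy1 and Ppargc1a. Median log2 changes of these lists in turn were -0.02, -0.05 and 0.01. Their median vehicle levels were 9.70, 14.5 and 3.19 FPKM. For the assembly factor and translation factor genes the median vehicle levels were 9.11 and 9.03 FPKM, and for the 78 genes 43.6 FPKM. The log2(FPKM + 1) scale understates changes of low genes. The differences between these lists were not tested.

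Cytosolic ribosomal protein genes encode the proteins of the ribosome that makes the nuclear-encoded proteins of the cell. They were taken by symbol, as Rpl or Rps with a number, Rplp or Rpsa, without the Rps6k kinases. The 105 genes so found may include some whose products are not part of that ribosome. Of 88 tested 17 fell (19.3%) and none rose, with a median log2 change of -0.10. Their estimate was below 0 for 83 genes (94.3%), a larger share than among the 78 mitochondrial ones. Their summed level was 43933, 51724, 45481 and 46569 FPKM in vehicle libraries 1 to 4 and 44396, 43266, 43868 and 43006 FPKM in DAPA libraries 1 to 4, so that the groups overlapped. Vehicle library 2 stood above the rest, and without it the difference of the sums went from -7.02% to -3.74%. A list of nuclear genes of the respiratory chain and ATP synthase was added after the data were seen. Of its 86 tested genes 5 rose (5.81%) and 11 fell (12.8%), against 9.62% and 8.75% of all genes tested. The median log2 change of these 86 genes was -0.03, with 58 estimates below 0 (67.4%).

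Promoters of 69 of the 78 genes were found in RefSeq (assembly GRCm38.p6), and the 250 bases before each start were searched on both strands for short motifs. A match is a description of letters, not of binding. The ETS motif CCGGAAG, the core bound by GABPA, was in 18 of the 69 genes (26.1%), against 15.7% of the genes tested and 7.83% of all genes in RefSeq's table. The NRF1 motif GCATGCG was in 8 (11.6%), against 6.28% of genes tested and 3.43% of all. The YY1 motif AAGATGG was in 6 (8.7%), against 5.07% of genes tested and 5.18% of all. The E-box CACGTG, which reads alike on both strands, was in 5 (7.25%), against 10.1% and 6.86%, and the TATA box TATAAA was in 5 (7.25%), against 8.15% and 14.3%. Of the 20 matched genes that fell, 5 held the ETS motif and 4 the E-box (Mrpl2, Mrpl20, Mrpl36 and Mrpl37), and of the 49 that did not pass the test 13 held the ETS motif and 1, Mrps18c, the E-box. The NRF1 motif was in 1 of the 20 and 7 of the 49, the YY1 motif in 1 and 5, and the TATA box in 0 and 5. These splits were not tested. The ETS motif was at 56 and 12 bases before the start of Mrpl43 and at 14 bases before that of Mrps26. The promoters of 5 genes that fell in every fit are shown, written 5′ to 3′ on the strand of the gene with motif letters in capitals, from RefSeq GRCm38.p6. Mrpl43 is at chr19:45006443-45006692 on the minus strand, Mrps26 at chr2:130563507-130563756 on the plus strand, Mrpl36 at chr13:73330759-73331008 on the plus strand, Mrpl37 at chr4:107066867-107067116 on the minus strand, and Mrpl12, which holds none of the motifs, at chr11:120484387-120484636 on the plus strand.
Mrpl43: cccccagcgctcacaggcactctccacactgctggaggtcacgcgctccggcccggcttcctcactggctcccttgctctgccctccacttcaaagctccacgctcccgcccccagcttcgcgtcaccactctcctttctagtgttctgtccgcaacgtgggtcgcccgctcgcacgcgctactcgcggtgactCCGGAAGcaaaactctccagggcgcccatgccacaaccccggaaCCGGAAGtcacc
Mrps26: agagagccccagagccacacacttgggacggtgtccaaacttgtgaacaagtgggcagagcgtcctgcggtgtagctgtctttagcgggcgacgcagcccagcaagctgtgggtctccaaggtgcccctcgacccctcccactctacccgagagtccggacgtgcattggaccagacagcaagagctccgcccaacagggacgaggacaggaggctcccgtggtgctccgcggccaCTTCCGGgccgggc
Mrpl36: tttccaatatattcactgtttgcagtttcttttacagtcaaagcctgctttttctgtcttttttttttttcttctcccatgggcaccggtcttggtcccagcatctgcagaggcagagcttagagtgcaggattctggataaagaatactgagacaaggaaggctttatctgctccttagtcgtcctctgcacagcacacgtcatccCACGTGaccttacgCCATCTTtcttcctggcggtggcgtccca
Mrpl37: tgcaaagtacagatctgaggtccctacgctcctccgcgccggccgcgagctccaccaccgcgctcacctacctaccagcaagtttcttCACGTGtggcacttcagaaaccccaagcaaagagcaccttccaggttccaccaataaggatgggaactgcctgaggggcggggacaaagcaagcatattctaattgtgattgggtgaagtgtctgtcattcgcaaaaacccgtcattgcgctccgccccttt
Mrpl12: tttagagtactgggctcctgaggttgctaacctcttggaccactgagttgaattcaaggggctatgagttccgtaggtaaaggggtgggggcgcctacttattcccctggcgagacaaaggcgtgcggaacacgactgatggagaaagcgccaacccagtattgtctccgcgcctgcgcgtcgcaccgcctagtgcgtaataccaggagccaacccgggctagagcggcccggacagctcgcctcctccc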

How the data were processed

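Heart RNA of 8 libraries was extracted with TRIzol, prepared with a stranded TruSeq mRNA kit, sequenced as paired reads and trimmed with Trimmomatic, per the labels' protocols. Tools named without versions, per the submitters' processing notes, are HISAT2, SAMtools, StringTie, Cufflinks, HTSeq and DESeq. The same notes name GRCh38, a human build, although the identifiers are those of mouse genes, so no coordinates come from the values. The authors deposited FPKM per gene and library, with their ratio of DAPA over vehicle and their q-value. FPKM values were whole multiples of 1 read for all 17356 genes above 0 (100% within 0.002 reads), which gave the depth.

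The test was limma 3.58.1 in its trend mode (R 4.3.3), applied to log2(FPKM + 1) with group as the only term, genes of mean FPKM 1 or more in a group, and Benjamini-Hochberg adjustment at 0.05 over all 11496 genes. Changes on this scale understate those of low genes. The genes and lists were chosen with earlier results of these data known. The script was tested on simulated data. Same-numbered libraries did not vary together (correlations of -0.0551 to 0.0138), so numbers were not used as pairs. Named genes are those past the threshold and nearest to it, the 4 highest and 4 lowest in each subunit, those whose place or role differs from their symbol, and up to 4 of smallest p in each other list. Mrps6, Mrpl44, Mrpl46 and Mrps18c were named after their values were seen.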

Additional observations from a re-analysis of the deposited data

Results flagged for a closer look

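In 9 of the 156 groups of 4 libraries (5.77%), 1 library stood far from the other 3, and chance alone gives about 1 in 20 such groups. For Mrps34, vehicle library 3 was at 143 FPKM and DAPA library 3 at 124 FPKM, each below the rest of its group. For Mrpl43 vehicle library 3 was low at 55.1 FPKM. Vehicle library 2 was high for Mrpl28 at 119.8 FPKM and for Mrpl33 at 253 FPKM. Vehicle library 3 was low for Mrpl1 at 8.74 FPKM, and vehicle library 1 was low for Mrpl32 at 35.7 FPKM and high for Mrpl22 at 25.5 FPKM. DAPA library 2 was low for Mrpl40 at 27.7 FPKM. The cause of these values was not tested.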

How the results depend on the processing

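Of the 78 genes, 23 fell as reported, 23 with a pseudocount of 0.1 or 0.01, 17 with no filter on low values, 24 with a filter of 5 FPKM, 20 with libraries shifted to the same median, 16 with libraries rescaled to the same sum, and 23 by limma voom from recovered reads, of which 21 were shared. With the replicate number as a block 17 fell, 16 of them shared. Leaving out 1 library gave 13 to 18 genes that fell and 0 to 1 that rose. 1 gene, Mrps6, rose with libraries rescaled to the same sum. The median log2 change of the large subunit stayed between -0.08 and -0.06 and that of the small subunit between -0.08 and -0.04. Mrpl33, which did not pass the test, went from -0.065 to 0.011 on leaving out 1 library, the positive value being without vehicle library 2. The cause of these changes was not tested. With 4 libraries a group, the standard errors of 0.0263 to 0.0653 on the log2 scale limit what could be called.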
